A study of Mus musculus with 16 samples.

Results

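The genes described here are 10 genes of fat cells: the adipokines Adipoq, Lep and Retn, the lipid droplet proteins Plin1, Plin4 and Cidec, the lipases Pnpla2 and Lipe, the fatty acid carrier Fabp4 and the nuclear receptor Pparg. They were taken by symbol from a count table of 26357 genes, and all 10 were found and passed the filter on low counts. RNA from 16 mice was sequenced in 4 groups of 4, which received IL-23 or its vehicle as agent and were dosed by mouth (oral) or intraperitoneally with a drug vehicle that held 0 mpk of compound. The groups are IL-23 oral, vehicle oral, IL-23 intraperitoneal and vehicle intraperitoneal, so that all 16 mice were dosed and no untreated group stands among them. IL-23 is a cytokine that drives psoriasis-like skin inflammation in mice, and the series' title speaks of such dermatitis. The labels give no strain, age, sex, tissue or day of harvest. Each library is named here by the number that opens its title, and what the tests weigh is the variation among these 16 samples, as nothing in the labels says how the mice of a group were raised or handled.

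White fat cells store triglyceride in 1 large droplet coated by perilipins, and CIDEC enlarges that droplet by fusing smaller ones. PNPLA2 (ATGL) and LIPE (HSL) act one after the other to break the stored triglyceride down, and perilipin 1 holds that breakdown in check until a hormone signal arrives. PPARG switches on most of these genes during fat cell formation, and skin carries a layer of such cells beneath the dermis. Nearly all of the 10 genes were lower with IL-23: 9 fell in each route, none rose in either, and Lipe alone was not called within a route. Of all tested genes, 34% were called lower in the oral and 30.9% in the intraperitoneal comparison. The shares called higher were 29.2% and 30.8%. The falls came in unequal sizes. Adipoq, Lep, Retn, Plin1 and Cidec were 3.38-fold to 6.20-fold lower with IL-23, whereas Fabp4, Pparg, Plin4 and Pnpla2 were 1.63-fold to 2.42-fold lower.

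Stretches of DNA just before a start of each of the 5 genes that fell most are printed here. They let the genes which moved together be set beside each other. Each stretch is the 250 bases that precede a RefSeq start of build GRCm38.p6, read along the gene's own strand. They lie at chr16:23146286-23146535 for Adipoq (plus strand), chr6:29059971-29060220 for Lep (plus), chr8:3655520-3655769 for Retn (plus), chr7:79732777-79733026 for Plin1 (minus) and chr6:113434765-113435014 for Cidec (minus). Cidec has another start in the table, at the upstream end of the gene's RefSeq span. The stretch before that start (chr6:113435761-113436010) holds no match and is not printed. The stretch printed for Cidec precedes a start inside the span. Capitals mark matches to TTGCNNAA, a form of the C/EBP site.
Adipoq: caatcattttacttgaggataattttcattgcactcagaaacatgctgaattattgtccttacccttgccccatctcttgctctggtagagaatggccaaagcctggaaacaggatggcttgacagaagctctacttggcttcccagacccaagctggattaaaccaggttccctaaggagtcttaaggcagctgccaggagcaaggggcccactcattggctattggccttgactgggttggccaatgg
Lep: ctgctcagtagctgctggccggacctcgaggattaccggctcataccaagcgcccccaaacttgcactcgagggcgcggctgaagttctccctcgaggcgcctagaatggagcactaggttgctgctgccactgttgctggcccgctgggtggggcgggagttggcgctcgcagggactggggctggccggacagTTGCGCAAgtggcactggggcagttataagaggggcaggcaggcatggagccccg
Retn: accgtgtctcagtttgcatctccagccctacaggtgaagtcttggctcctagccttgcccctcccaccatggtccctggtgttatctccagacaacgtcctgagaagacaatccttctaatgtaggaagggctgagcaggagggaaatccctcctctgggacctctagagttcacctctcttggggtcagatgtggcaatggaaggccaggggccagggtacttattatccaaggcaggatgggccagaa
Plin1: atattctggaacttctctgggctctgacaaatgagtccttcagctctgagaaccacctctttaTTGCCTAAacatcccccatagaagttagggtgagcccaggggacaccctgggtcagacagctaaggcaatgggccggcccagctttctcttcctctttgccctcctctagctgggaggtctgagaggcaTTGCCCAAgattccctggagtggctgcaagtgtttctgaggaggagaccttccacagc
Cidec: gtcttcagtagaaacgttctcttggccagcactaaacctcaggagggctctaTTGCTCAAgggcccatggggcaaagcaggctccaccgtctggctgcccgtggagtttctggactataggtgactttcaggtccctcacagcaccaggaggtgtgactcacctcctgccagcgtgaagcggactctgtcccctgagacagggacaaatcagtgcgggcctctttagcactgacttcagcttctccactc
Matches to 5 motifs were sought on both strands from 250 bases before to 50 bases after each start. The table held 13 promoters of 9 of the 10 genes, Fabp4 being the gene without an entry, among 32851 promoters in all. TTGCNNAA was found in 4 of the 13, in those of Lep, Plin1, Cidec and Pparg, and in 10.8% of all promoters. Counted with -1 as the base just before the start, the match in Lep lay at -55 to -48, those in Plin1 at -187 to -180 and at -58 to -51, and that in Cidec at -198 to -191. The direct repeat of AGGTCA with 1 base between its copies (DR1), the form that PPARG and its partner RXR bind, was in none of the 13 and in 0.0396% of all promoters. Its looser form, with any base in place of the T of each copy, includes it and was in none of the 13 and in 0.381% of all. The single unit AGGTCA, which the repeat contains, was in 2 of the 13, both of Pparg, and in 16.3% of all. TATAAA was in 1 of the 13, again of Pparg, and in 13.6% of all. These are matches of letters in short windows, and nothing about binding follows from them.

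Libraries held 6381990 to 10078531 counts in the IL-23 groups and 7159325 to 14432930 in the vehicle groups, and 14671 genes were tested. Values are CPM, counts relative to library size, scaled with TMM factors. The change was broad: 63.3% of all tested genes were called in the oral comparison and 61.7% in the intraperitoneal one, at an adjusted p below 0.05. On the first principal component of the log2 CPM of all tested genes, which held 71.2% of the variance, the IL-23 libraries lay between -71.5 and -47.2 and the vehicle libraries between 43.6 and 67.0. IL-23 intraperitoneal library 28 stood apart on the next component, at -62.5, against -14.1 to 20.9 for the other 15 libraries. Without library 28 the count of the 10 genes called lower was again 9 in each route, and their median intraperitoneal log2 fold change was -1.26.

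In the oral comparison 9 of the 10 genes were called lower, against 34% of all tested genes. In the intraperitoneal comparison 9 of the 10 were called lower, against 30.9% of all tested genes. None was called higher, against 29.2% of all tested genes in the oral and 30.8% in the intraperitoneal comparison. The same 9 genes were called lower in both routes, as were 27.4% of all tested genes. Over both routes all 10 were called lower, against 38.7% of all tested genes, and 9 of 10 with RLE factors or without any 1 of IL-23 oral library 24, vehicle oral library 51, IL-23 intraperitoneal library 28 and vehicle intraperitoneal libraries 50, 59 and 67. The median log2 fold change of the 10 genes was -1.71 in the oral and -1.39 in the intraperitoneal comparison, beside -0.06 and -0.02 over all tested genes. Every IL-23 library lay below every vehicle library of its route for 10 of 10 genes with oral dosing, against 31.8% of all tested genes. The same held for 9 of 10 with intraperitoneal dosing, against 25.8% of all tested genes. All 8 IL-23 libraries lay below all 8 vehicle libraries for 9 of the 10 genes, the exception being Lipe, against 19.2% of all tested genes. In these bulk samples fewer fat cells and less RNA of a gene per fat cell cannot be told apart. As CPM are relative to library size, a larger share of RNA from other tissue cannot be told apart from these either.

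Adiponectin, encoded by Adipoq (gene ID 11450, chr16:23146536-23157968), is the most abundant hormone that fat cells secrete, and raises insulin sensitivity. Adipoq had 14.4, 18.2, 11.4 and 19.8 CPM in IL-23 oral libraries 14, 24, 26 and 68, against 73.2, 68.0, 68.1 and 79.3 CPM in vehicle oral libraries 4, 27, 33 and 51. It had 10.9, 14.4, 29.8 and 15.4 CPM in IL-23 intraperitoneal libraries 25, 28, 31 and 61, against 49.3, 58.8, 65.4 and 68.1 CPM in vehicle intraperitoneal libraries 49, 50, 59 and 67. The groups did not overlap, and the highest IL-23 value, of library 31, was still below the lowest vehicle value, of library 49. Adipoq fell by 2.17 ± 0.23 (SE) on the log2 scale in the oral comparison (adjusted p = 5.33e-07), and by 1.76 ± 0.22 in the intraperitoneal one (adjusted p = 5.37e-06).

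Leptin, encoded by Lep (gene ID 16846, chr6:29060221-29073876), reports the size of the fat stores to the brain. In the same order of libraries, which is kept for all genes below, Lep had 2.63, 4.58, 2.66 and 4.57 CPM in IL-23 oral libraries, against 19.9, 21.4, 18.4 and 31.7 CPM in vehicle oral libraries. It had 5.35, 4.38, 9.26 and 2.32 CPM in IL-23 intraperitoneal libraries, against 14.2, 16.3, 24.3 and 22.6 CPM in vehicle intraperitoneal libraries. All 8 IL-23 values were below all 8 vehicle values, with IL-23 library 31 again the highest of its group. Lep showed the largest oral fall of the 10 genes, 2.63 ± 0.32 on the log2 scale (adjusted p = 2.81e-06), or 6.20-fold, and only 0.45% of tested genes had a log2 fold change as low or lower. Its intraperitoneal fall was 1.83 ± 0.31 (adjusted p = 8.44e-05), or 3.56-fold.

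Resistin, encoded by Retn (gene ID 57264, chr8:3655770-3659818), is secreted by fat cells in mice and opposes insulin action. Retn had 3.94, 4.10, 1.65 and 6.27 CPM in IL-23 oral libraries, against 28.0, 21.4, 20.3 and 19.0 CPM in vehicle oral libraries. It had 3.73, 3.23, 7.84 and 3.64 CPM in IL-23 intraperitoneal libraries, against 14.6, 17.4, 20.5 and 16.6 CPM in vehicle intraperitoneal libraries. The groups were apart in both routes, with library 31 far above the other 3 of its group. Retn fell 5.49-fold in the oral comparison (log2 -2.46 ± 0.30, adjusted p = 2.74e-06) and 3.68-fold in the intraperitoneal one (log2 -1.88 ± 0.30, adjusted p = 4.50e-05).

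**Figure D1:**
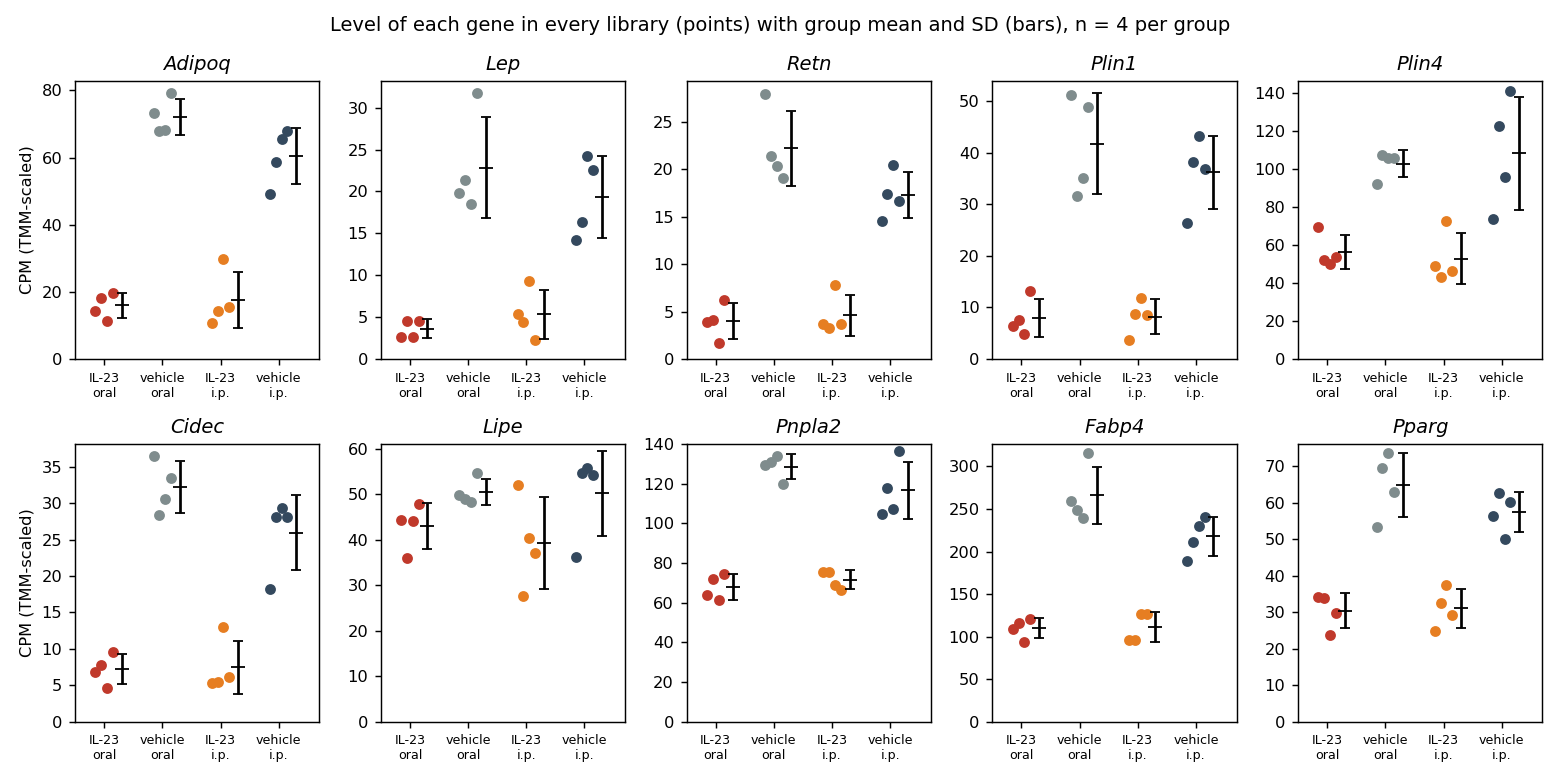
CPM of each gene (y axis, from 0, own scale for each panel) in every library, by group along the x axis, with i.p. for intraperitoneal; points are libraries and bars the group mean and SD, n = 4. In Adipoq, Lep, Retn, Plin1 and Cidec the IL-23 groups sit near the bottom of the panel, while in Lipe the groups reach into each other in the intraperitoneal libraries.

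Perilipin 1, encoded by Plin1 (gene ID 103968, chr7:79721164-79732904), coats the large droplet of fat cells and guards it from lipases. Plin1 had 6.40, 7.48, 4.82 and 13.2 CPM in IL-23 oral libraries, against 51.2, 31.6, 35.2 and 48.9 CPM in vehicle oral libraries. It had 3.73, 8.64, 11.9 and 8.61 CPM in IL-23 intraperitoneal libraries, against 26.4, 38.1, 43.3 and 36.9 CPM in vehicle intraperitoneal libraries. The highest IL-23 library, oral library 68, had 13.2 CPM, and the lowest vehicle library, 49, had 26.4 CPM. Plin1 fell 5.15-fold in the oral comparison (log2 -2.36 ± 0.29, adjusted p = 3.32e-06) and 4.32-fold in the intraperitoneal one (log2 -2.11 ± 0.29, adjusted p = 1.34e-05), the largest intraperitoneal fall of the 10 genes.

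Cidec (gene ID 14311, chr6:113424634-113435760), which encodes the droplet-fusing protein also known as FSP27, had 6.89, 7.84, 4.56 and 9.56 CPM in IL-23 oral libraries, against 36.5, 28.3, 30.6 and 33.5 CPM in vehicle oral libraries. It had 5.35, 5.42, 12.9 and 6.13 CPM in IL-23 intraperitoneal libraries, against 18.3, 28.1, 29.3 and 28.1 CPM in vehicle intraperitoneal libraries. Libraries 31 and 49 stood apart within their groups, library 31 high and library 49 low, yet the groups did not meet. Cidec fell 4.44-fold in the oral comparison (log2 -2.15 ± 0.26, adjusted p = 2.25e-06) and 3.42-fold in the intraperitoneal one (log2 -1.77 ± 0.26, adjusted p = 2.04e-05).

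Plin4 (gene ID 57435, chr17:56100587-56109948), which encodes a perilipin of small, newly formed droplets, changed less. It had 69.7, 52.0, 50.2 and 53.5 CPM in IL-23 oral libraries, against 92.2, 107, 106 and 106 CPM in vehicle oral libraries. It had 49.3, 43.2, 72.9 and 46.4 CPM in IL-23 intraperitoneal libraries, against 73.9, 123, 95.7 and 141 CPM in vehicle intraperitoneal libraries. IL-23 library 31 with 72.9 CPM came close to vehicle library 49 with 73.9 CPM, and the agents did not overlap in either route. Plin4 fell by 0.87 ± 0.18 on the log2 scale in the oral comparison (adjusted p = 0.000538) and by 1.03 ± 0.18 in the intraperitoneal one (adjusted p = 0.000146).

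Both lipases changed less than the adipokines. Pnpla2 (gene ID 66853, chr7:141455188-141460743), whose product takes the first fatty acid off triglyceride, had 63.7, 72.2, 61.4 and 74.7 CPM in IL-23 oral libraries, against 129.5, 131, 134 and 119.8 CPM in vehicle oral libraries. It had 75.5, 75.6, 69.0 and 66.4 CPM in IL-23 intraperitoneal libraries, against 105, 118, 107 and 136 CPM in vehicle intraperitoneal libraries. The libraries of a group lay close together, so the 1.89-fold oral fall (log2 -0.92 ± 0.09, adjusted p = 2.49e-07) and the 1.63-fold intraperitoneal fall (log2 -0.70 ± 0.09, adjusted p = 4.97e-06) had the smallest standard errors among the 10 genes.

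Lipe (gene ID 16890, chr7:25379527-25398486), whose product takes the next fatty acid off, had 44.3, 36.0, 44.1 and 47.8 CPM in IL-23 oral libraries, against 49.9, 49.0, 48.3 and 54.7 CPM in vehicle oral libraries. It had 52.0, 27.5, 40.4 and 37.1 CPM in IL-23 intraperitoneal libraries, against 36.2, 54.6, 55.7 and 54.2 CPM in vehicle intraperitoneal libraries. The oral groups lay side by side without overlap, whereas with intraperitoneal dosing IL-23 library 25 was well above vehicle library 49. Lipe was not called in either route, at a log2 fold change of -0.23 (95% interval -0.57 to 0.11, adjusted p = 0.218) in the oral and -0.36 (-0.70 to -0.02, adjusted p = 0.0649) in the intraperitoneal comparison. As the mean over both routes it was called lower, by 0.29 ± 0.11 on the log2 scale (adjusted p = 0.0278).

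The Lipe calls depended on scaling and on single libraries. With plain library size, which lowered the median of all tested genes to -0.26 in the oral and -0.23 in the intraperitoneal comparison, Lipe was called at -0.43 (adjusted p = 0.0149) and -0.58 (adjusted p = 0.00238). In the intraperitoneal comparison it was also called with upper-quartile factors (-0.46, adjusted p = 0.0190), without IL-23 library 25 (-0.51, adjusted p = 0.00900) and without vehicle library 49 (-0.49, adjusted p = 0.0109), and without IL-23 library 28 it stood at -0.19. In the annotation of GENCODE release M21, 918 exon bases of Lipe, 15.6% of its exon length, overlap the antisense gene 4732471J01Rik. That gene had 0.15 ± 0.18 CPM in the IL-23 libraries and 0.13 ± 0.22 CPM in the vehicle libraries (SD, n = 8 each). Whether counting used strand is not given in the sources used here, so reads of this overlap cannot be told apart.

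Fabp4 (gene ID 11770, chr3:10204342-10208616) encodes a fatty acid carrier abundant in fat cells that capillary endothelium and macrophages also make. It had 109, 116, 93.7 and 121 CPM in IL-23 oral libraries, against 259, 249, 239.9 and 316 CPM in vehicle oral libraries. It had 95.8, 95.9, 127 and 126 CPM in IL-23 intraperitoneal libraries, against 189, 211, 230.3 and 241 CPM in vehicle intraperitoneal libraries. The IL-23 values of both routes covered almost the same range, and all lay below the vehicle values. Fabp4 fell 2.42-fold in the oral comparison (log2 -1.27 ± 0.12, adjusted p = 2.06e-07) and 1.96-fold in the intraperitoneal one (log2 -0.97 ± 0.12, adjusted p = 4.12e-06).

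Pparg (gene ID 19016, chr6:115360879-115490404), the master regulator of fat cell formation that sebaceous cells also express, had 34.1, 34.0, 23.8 and 29.9 CPM in IL-23 oral libraries, against 53.4, 69.5, 73.7 and 63.0 CPM in vehicle oral libraries. It had 25.0, 32.6, 37.4 and 29.3 CPM in IL-23 intraperitoneal libraries, against 56.3, 62.7, 50.2 and 60.4 CPM in vehicle intraperitoneal libraries. The agents were apart in both routes. Pparg fell 2.13-fold in the oral comparison (log2 -1.09 ± 0.14, adjusted p = 3.18e-06) and 1.84-fold in the intraperitoneal one (log2 -0.88 ± 0.14, adjusted p = 3.67e-05).

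**Figure D2:**
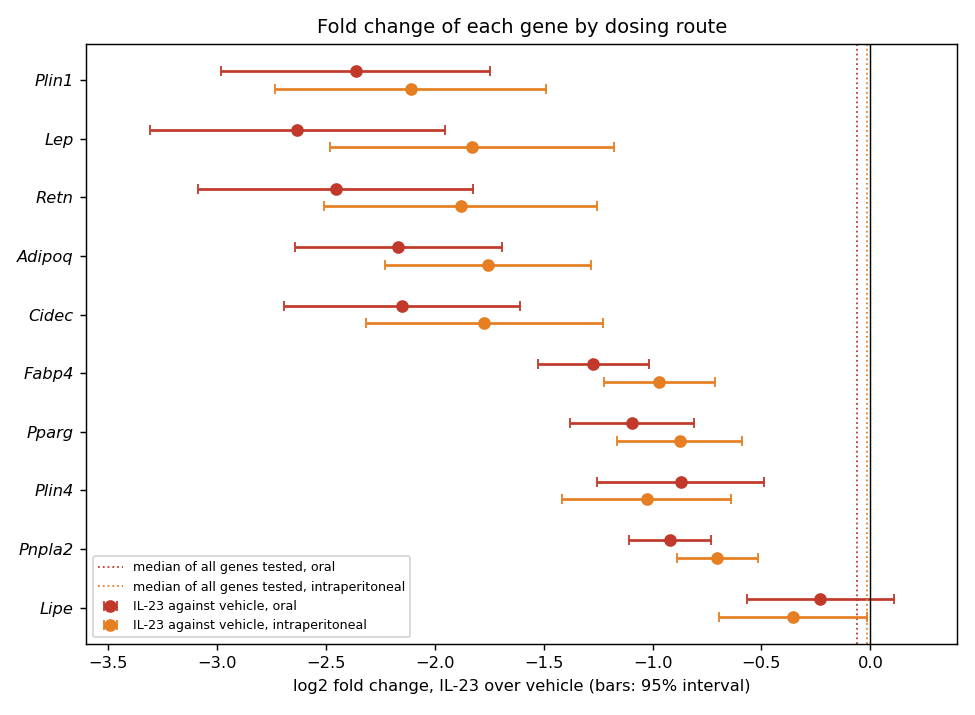
Log2 fold change of each gene, IL-23 over vehicle (x axis), in the oral and the intraperitoneal comparison; points are estimates, bars 95% intervals, and dotted lines the medians of all genes tested at -0.06 and -0.02. Plin1, Lep, Retn, Adipoq and Cidec lie at -1.76 or lower, Fabp4, Pparg, Plin4 and Pnpla2 between -1.27 and -0.70, and Lipe nearest to 0.

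The unequal falls can be read within each library as the log2 ratio of a gene's CPM to that of Adipoq. The ratio of Cidec to Adipoq ran from -1.38 to -0.99 in the 8 IL-23 libraries and from -1.42 to -1.0 in the 8 vehicle libraries, and its means differed by 0.02, so both genes moved by nearly the same factor. The ratios of Lep, Plin1 and Retn to Adipoq likewise overlapped between the agents, with mean differences of -0.25, -0.29 and -0.21. For the other 5 genes every IL-23 library lay above every vehicle library. The ratio of Fabp4 to Adipoq ran from 2.08 to 3.12 with IL-23 and from 1.81 to 1.99 with vehicle. That of Pparg ran from 0.33 to 1.23 with IL-23 and from -0.45 to 0.19 with vehicle. That of Plin4 ran from 1.28 to 2.26 with IL-23 and from 0.33 to 1.06 with vehicle. The lipases showed the widest shifts: for Pnpla2 the ratio ran from 1.21 to 2.77 with IL-23 and from 0.59 to 1.09 with vehicle, and for Lipe from 0.44 to 2.24 with IL-23 and from -0.55 to -0.11 with vehicle. Adipoq itself had a log2 fold change of -1.96 over both routes, beside a median of -0.04 over all tested genes. The ratio to Adipoq of a gene that did not change would therefore rise as well. How many of all tested genes would be apart in this way was not counted, so the separation is not particular to these genes. The ratios are given as a description, without a test.

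**Figure D3:**
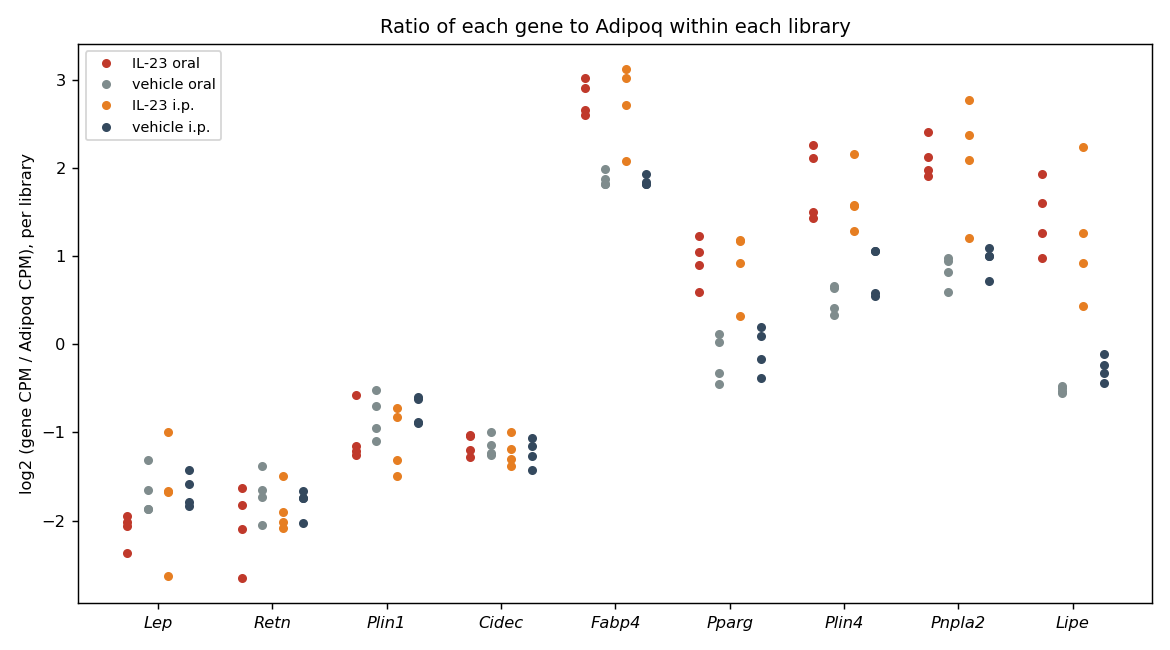
Log2 ratio of each gene's CPM to that of Adipoq in the same library (y axis) for the other 9 genes (x axis); each point is a library, coloured by group, with i.p. for intraperitoneal. For Lep, Retn, Plin1 and Cidec the IL-23 and vehicle points overlap, and for Fabp4, Pparg, Plin4, Pnpla2 and Lipe all IL-23 points lie above all vehicle points. Adipoq itself fell, which raises the ratio of any gene that fell less.

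Per kilobase of exon, the 10 genes kept a wide range of levels. Fabp4 was the highest, at 123 ± 15.7 CPM per kilobase in the 8 IL-23 libraries and 269.9 ± 41.4 in the 8 vehicle libraries (SD). Lep was the lowest, at 1.37 ± 0.69 with IL-23 and 6.47 ± 1.66 with vehicle. Adipoq came next to Fabp4 in the vehicle libraries, at 51.3 ± 7.0 CPM per kilobase, within the spread of Pnpla2 at 46.7 ± 4.58. In the IL-23 libraries Pnpla2, at 26.6 ± 2.12, stood above Adipoq at 13.0 ± 4.70 and Pparg at 12.9 ± 1.97, the last pair being within their spread. Lipe, with 7.51 ± 1.40 in IL-23 and 9.18 ± 1.17 in vehicle libraries, was above Cidec in the IL-23 libraries (4.18 ± 1.58) and below it in the vehicle libraries (16.6 ± 3.02). Plin1 had 2.09 ± 0.84 with IL-23 and 10.1 ± 2.17 with vehicle, and Retn 2.72 ± 1.21 with IL-23 and 12.5 ± 2.55 with vehicle.

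No difference between the routes was called for any of the 10 genes, nor for any of the 14671 tested by edgeR. DESeq2 called 57 genes between the routes in IL-23 mice and 1 in vehicle mice. It called 1 gene for the difference of the IL-23 effect, and limma-voom called 0 genes in these comparisons. The fall was smaller with intraperitoneal dosing for 8 of the 10 genes in estimate, but the intervals were wide. The largest difference of the IL-23 effect (intraperitoneal minus oral) was that of Lep, 0.80 ± 0.45 on the log2 scale (95% interval -0.14 to 1.74, adjusted p = 0.875). At an unadjusted p below 0.05, 0 of the 10 genes and 5.43% of all tested genes differed in the IL-23 effect, and DESeq2 and limma-voom also called 0 of the 10. Between intraperitoneal and oral vehicle mice, 1 of the 10 had an unadjusted p below 0.05, Fabp4 at a log2 difference of -0.29 (adjusted p = 0.638, edgeR), beside 7.41% of all tested genes. Between intraperitoneal and oral IL-23 mice it was 0 of the 10, beside 12.8% of all tested genes.

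Some single libraries moved most or all of the 10 genes together within a group, and others did not. In IL-23 intraperitoneal library 31, 9 of the 10 were above the median of its group, and the median over the genes was 145% of it. In vehicle intraperitoneal library 49, none was above it, at a median of 76.1%, and library 49 was the lowest vehicle library for 9 of the 10 genes. In IL-23 oral library 26 none was above its group's median, at a median of 74.1%. The genes split in IL-23 intraperitoneal library 25, from 43.2% to 134% of the group median, with 5 above it. They also split in IL-23 oral library 14, from 72.6% to 132%, with 3 above it. Without library 31, the intraperitoneal log2 fold change of Adipoq was -2.15 and that of Lep -2.25, and without library 68 the oral one of Plin1 was -2.74.

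Genes beside the 10 were described from lists of the same pathway, whose counts stand beside 34% of all tested genes called lower and 29.2% called higher in the oral comparison, and 30.9% lower and 30.8% higher in the intraperitoneal one. Of 11 other lipid droplet proteins tested, 7 fell and none rose in the oral comparison, and 6 fell and 2 rose in the intraperitoneal one, with median log2 fold changes of -0.93 and -0.62. Cidea, a droplet protein of brown fat and of sebaceous cells, had 138 ± 21.1 CPM in IL-23 and 262 ± 45.5 CPM in vehicle libraries (SD, n = 8 each here and below), and fell by 0.93 on the log2 scale in both routes (adjusted p = 5.94e-05 oral, 6.78e-05 intraperitoneal). Plin5, a perilipin of cells that burn fat, had 1.98 ± 0.61 CPM with IL-23 and 4.25 ± 0.99 with vehicle, and fell in both routes (adjusted p = 0.00193 oral, 0.00919 intraperitoneal). Plin2, the perilipin found on droplets in most cell types, had 202 ± 20.8 CPM with IL-23 and 248 ± 44.7 with vehicle. Over both routes Plin2 was called lower (log2 -0.29, adjusted p = 0.0130). Within a route it was called in the oral comparison (log2 -0.37, adjusted p = 0.0270). That call was lost without any 1 of IL-23 oral library 68 and vehicle oral libraries 4, 27 and 33 (adjusted p up to 0.0980). In the intraperitoneal comparison Plin2 was called with plain library size only (-0.42, adjusted p = 0.0122).

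Hsd17b13, a droplet enzyme, had 2.35 ± 1.22 CPM with IL-23 and 5.01 ± 1.05 with vehicle and was called lower in both routes (adjusted p = 0.0334 oral, 0.0277 intraperitoneal). The oral call was lost without any 1 of IL-23 library 68 and vehicle libraries 4, 33 and 51 (adjusted p up to 0.108), and the intraperitoneal one without any 1 of IL-23 library 28 and vehicle libraries 59 and 67 (up to 0.0561, at a log2 fold change of -0.76 without library 28). The 2 that rose, in the intraperitoneal comparison, were Hilpda, a hypoxia-induced inhibitor of PNPLA2 (log2 0.75, adjusted p = 0.0438), and Aup1 (log2 0.23, adjusted p = 0.0393). Each lost its call with upper-quartile factors, with plain library size, in a fit of only the groups compared (Hilpda with DESeq2 too) and without single libraries, Hilpda without any 1 of 8 (adjusted p up to 0.143) and Aup1 without any 1 of 5 (up to 0.124). For Hilpda these were IL-23 oral 14 and 24, vehicle oral 27 and 33, IL-23 intraperitoneal 31 and 61, and vehicle intraperitoneal 49 and 59. In the oral comparison Hilpda was not called (log2 0.64, adjusted p = 0.0765), but passed in a fit of only the groups compared (0.66) and without any 1 of IL-23 oral library 68 (0.80), IL-23 intraperitoneal library 28 (0.67) and vehicle intraperitoneal library 49 (0.65). For Aup1 these were IL-23 intraperitoneal 25 and 31 and vehicle intraperitoneal 49, 59 and 67. Over both routes Hilpda (log2 0.69, adjusted p = 0.00827) and Aup1 (log2 0.18, adjusted p = 0.0209) were called higher.

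Of 14 tested genes of lipolysis and its hormonal control, 10 fell and 2 rose in each route, with median log2 fold changes of -1.0 oral and -0.85 intraperitoneal. Npr3, the receptor that clears natriuretic peptides, had 16.6 ± 2.84 CPM with IL-23 and 70.3 ± 13.7 with vehicle, and fell by 2.14 on the log2 scale in the oral (adjusted p = 1.43e-08) and by 2.0 in the intraperitoneal comparison (adjusted p = 4.44e-08). Ces1d, a triglyceride hydrolase, had 41.4 ± 11.5 CPM with IL-23 and 156 ± 31.5 with vehicle, and fell by 1.97 oral (adjusted p = 1.67e-07) and 1.84 intraperitoneal (adjusted p = 4.91e-07). Mgll, which takes the last fatty acid off, had 1429 ± 204 CPM with IL-23 and 2613 ± 556 with vehicle, and fell by 0.85 oral (adjusted p = 0.000579) and 0.89 intraperitoneal (adjusted p = 0.000413). The 2 that rose were Abhd5, the co-activator of PNPLA2, with 279 ± 37.8 CPM with IL-23 and 173 ± 10.2 with vehicle, and Hcar2, the niacin and ketone body receptor that restrains lipolysis, with 184 ± 35.3 CPM with IL-23 and 51.8 ± 7.91 with vehicle. Abhd5 rose by 0.66 oral (adjusted p = 3.52e-05) and 0.72 intraperitoneal (adjusted p = 1.83e-05), and Hcar2 by 1.88 oral (adjusted p = 6.90e-08) and 1.78 intraperitoneal (adjusted p = 1.40e-07). G0s2, the inhibitor of PNPLA2, had 0 counts in all 16 libraries, and Adrb1 was under the filter with 11 counts over the IL-23 and 101 over the vehicle libraries.

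Of 15 tested genes of lipid and glycerol uptake and triglyceride assembly, 10 fell and 2 rose in the oral comparison, and 9 fell and 2 rose in the intraperitoneal one. The risers numbered 1 in each route with upper-quartile factors, and 1 oral and 0 intraperitoneal with plain library size. Those that supply glycerol phosphate fell most: Gpd1 had 23.4 ± 6.94 CPM with IL-23 and 73.2 ± 14.0 with vehicle (log2 -1.69 oral, adjusted p = 2.46e-06, and -1.58 intraperitoneal, adjusted p = 7.31e-06). Pck1, the enzyme of glyceroneogenesis, had 1.45 ± 1.08 CPM with IL-23 and 7.05 ± 1.80 with vehicle (log2 -2.33 oral, adjusted p = 0.000421, and -2.14 intraperitoneal, adjusted p = 0.00115), and without IL-23 oral library 68 its oral value was -3.53. Dgat2, which completes triglyceride, had 291 ± 51.1 CPM with IL-23 and 288 ± 21.6 with vehicle and was not called (log2 -0.03 oral, 0.06 intraperitoneal). Dgat1, its counterpart, rose by 0.64 oral (adjusted p = 0.00601) and by 0.48 intraperitoneal (adjusted p = 0.0336). The intraperitoneal call of Dgat1 was lost without any 1 of IL-23 libraries 31 and 61 and vehicle libraries 49 and 59 (adjusted p up to 0.115, at 0.31 without library 49), with upper-quartile factors, with plain library size and in a fit of only the groups compared. Acsl1, which activates fatty acids, was the other oral riser (log2 0.30, adjusted p = 0.0287), and was not called with upper-quartile factors, with plain library size or without any 1 of IL-23 oral libraries 14 and 68 and vehicle oral libraries 27 and 51 (adjusted p up to 0.0853). Its intraperitoneal value was 0.20 and not called, and 0.35 and called without IL-23 library 28 (adjusted p = 0.00122). Over both routes Acsl1 was called higher (log2 0.25, adjusted p = 0.00944). Angptl4, a secreted inhibitor of lipoprotein lipase, was the other intraperitoneal riser (log2 0.94, adjusted p = 0.0165), at 0.40 and not called without IL-23 library 28 (adjusted p = 0.126), and not called with plain library size or in a fit of only the groups compared. In the oral comparison it was at 0.63 and not called (adjusted p = 0.0918), but called without library 28 (0.66, adjusted p = 0.00666) and in a fit of only the groups compared. Over both routes Angptl4 was called higher (log2 0.78, adjusted p = 0.00453).

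Among 15 tested adipogenic transcription factors beside Pparg, 8 fell and 5 rose in each route; with plain library size 2 rose in each, and with upper-quartile factors 3 rose in the intraperitoneal comparison. With 5 risers of 15, the share was near that of all tested genes called higher (29.2% oral, 30.8% intraperitoneal). Cebpb and Cebpd, the early factors of fat cell formation that inflammatory signals also induce, rose. Cebpd had 47.0 ± 10.1 CPM with IL-23 and 14.5 ± 2.08 with vehicle (log2 1.92 oral, adjusted p = 1.01e-07, and 1.48 intraperitoneal, adjusted p = 1.66e-06). Cebpb had 188 ± 32.3 CPM with IL-23 and 99.7 ± 19.4 with vehicle (log2 1.09 oral, adjusted p = 3.20e-05, and 0.73 intraperitoneal, adjusted p = 0.00129). Stat5a and Ppargc1b rose too, Stat5a by 0.38 oral and 0.35 intraperitoneal and Ppargc1b by 0.65 oral and 0.57 intraperitoneal, and neither was called with plain library size. The intraperitoneal call of Ppargc1b was also lost with upper-quartile factors and without any 1 of IL-23 libraries 25 and 31 and vehicle libraries 59 and 67 (adjusted p up to 0.0867). Cebpa, the late partner of Pparg that keratinocytes also express, had 491 ± 52.2 CPM with IL-23 and 407 ± 36.8 with vehicle. It rose by 0.25 oral (adjusted p = 0.0478) and 0.29 intraperitoneal (adjusted p = 0.0268), with both calls lost under upper-quartile factors and under plain library size, and the intraperitoneal one also in a fit of only the groups compared. The oral call was also lost without any 1 of 11 libraries (adjusted p up to 0.123, without IL-23 oral library 14) and the intraperitoneal one without any 1 of IL-23 libraries 25 and 61 and vehicle libraries 49 and 59 (up to 0.0972).

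On the falling side, Ebf1, which acts with Pparg in fat cells, had 2.52 ± 0.79 CPM with IL-23 and 9.32 ± 2.67 with vehicle (log2 -1.76 oral, adjusted p = 5.99e-05, and -1.96 intraperitoneal, adjusted p = 2.23e-05). Its relative Ebf2 had 0.32 ± 0.33 CPM with IL-23 and 1.24 ± 0.58 with vehicle. Ebf2 was called lower in both routes (adjusted p = 0.0245 oral, 0.0338 intraperitoneal), with the oral call lost without any 1 of IL-23 libraries 14 and 26 and vehicle library 4 (adjusted p up to 0.0709) and the intraperitoneal one without any 1 of IL-23 libraries 25, 31 and 61 and vehicle library 59 (up to 0.146). Its intraperitoneal value was -1.67, and -2.47 without IL-23 library 28. Srebf1, a regulator of fatty acid synthesis, had 312 ± 39.4 CPM with IL-23 and 502 ± 54.3 with vehicle and fell in both routes (adjusted p = 4.50e-05 oral, 0.000168 intraperitoneal).

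Of 15 other secreted products of fat cells tested, 8 fell and 2 rose in the oral comparison and 7 fell and 4 rose in the intraperitoneal one. The shares of risers did not exceed those of all tested genes (29.2% oral, 30.8% intraperitoneal). Nnat, a small membrane proteolipid placed in this list, had 3.96 ± 1.87 CPM with IL-23 and 17.0 ± 3.84 with vehicle and fell (adjusted p = 6.80e-05 oral, 2.45e-05 intraperitoneal). Apoe, a lipid carrier that macrophages also secrete, had 1879 ± 270 CPM with IL-23 and 2897 ± 371 with vehicle and fell (adjusted p = 0.000397 oral, 0.000450 intraperitoneal). Lcn2, a siderophore-binding protein that inflamed epidermis and neutrophils also make, had 210.1 ± 44.9 CPM with IL-23 and 4.60 ± 1.07 with vehicle, a log2 rise of 5.42 oral and 5.64 intraperitoneal. Hp, the haemoglobin-binding acute phase protein, had 218 ± 74.2 CPM with IL-23 and 81.2 ± 20.1 with vehicle and rose (adjusted p = 0.000815 oral, 0.000350 intraperitoneal). Angptl4, described above, was among the other intraperitoneal risers. Apoc1 was not called in either route.

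Of 7 tested receptors of the adipokines, 2 fell and none rose in each route, a share of falls near that of all tested genes (34% oral, 30.9% intraperitoneal). Cdh13, the cell-surface binding partner of adiponectin, had 14.7 ± 2.55 CPM with IL-23 and 48.7 ± 7.10 with vehicle (log2 -1.93 oral, adjusted p = 1.57e-08, and -1.53 intraperitoneal, adjusted p = 1.78e-07). Lepr, the leptin receptor, had 10.7 ± 4.32 CPM with IL-23 and 23.4 ± 5.59 with vehicle (log2 -1.31 oral, adjusted p = 0.00133, and -0.98 intraperitoneal, adjusted p = 0.00855). The adiponectin receptors Adipor1 and Adipor2 were not called, with log2 fold changes of -0.09 and 0.09 oral and -0.03 and 0.07 intraperitoneal. With plain library size Adipor1 was called lower in both routes.

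Among 7 tested genes of brown and beige fat, 5 fell in each route and none rose. Cidea, described above, was among those that fell and is also used below as a sebaceous cell marker. Otop1, a proton channel, had 0.23 ± 0.19 CPM with IL-23 and 1.44 ± 0.40 with vehicle and fell (adjusted p = 0.000392 oral, 0.000208 intraperitoneal), by 3.07 on the log2 scale in the intraperitoneal comparison, where it was at -3.66 without IL-23 library 25. Ppara, the receptor that drives fatty acid burning, had 25.7 ± 3.03 CPM with IL-23 and 64.6 ± 7.94 with vehicle and fell by 1.33 on the log2 scale in both routes. Elovl3, an elongase that sebaceous cells also express, was not called, with 623 ± 111 CPM with IL-23 and 647 ± 170 with vehicle. Ucp1, the uncoupler that defines brown fat, was under the filter with 16 counts over the IL-23 and 33 over the vehicle libraries.

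Of 10 tested genes of fat cell precursors, 5 fell and 2 rose in the oral comparison and 3 fell and 3 rose in the intraperitoneal one. The intraperitoneal shares were near those of all tested genes (30.9% lower, 30.8% higher). Dlk1, which keeps precursors undifferentiated, had 1.80 ± 0.43 CPM with IL-23 and 6.50 ± 2.52 with vehicle and fell (adjusted p = 6.42e-05 oral, 0.000432 intraperitoneal). Cd34, also a marker of endothelium, fell in the oral comparison (log2 -0.78, adjusted p = 0.00142) and was not called in the intraperitoneal one (log2 -0.09). Over both routes Cd34 was called lower (log2 -0.44, adjusted p = 0.00575). Ly6a, a surface antigen of precursors and of interferon-exposed cells, had 292 ± 113 CPM with IL-23 and 152 ± 13.4 with vehicle and rose (adjusted p = 0.00717 oral, 0.000273 intraperitoneal), its oral call being lost with plain library size. Its intraperitoneal rise was 1.13 on the log2 scale, and 0.73 without IL-23 library 28. Icam1, an adhesion molecule that inflamed endothelium and keratinocytes also show, had 61.6 ± 18.9 CPM with IL-23 and 24.3 ± 4.19 with vehicle and rose (adjusted p = 8.09e-05 oral, 7.45e-05 intraperitoneal). Dpp4, the third intraperitoneal riser, had a log2 fold change of 0.62 there (adjusted p = 0.0142) and was not called there with plain library size. In the oral comparison it was at 0.36 (adjusted p = 0.131), and at 0.54 and called without IL-23 oral library 24 (adjusted p = 0.0133). Over both routes Dpp4 was called higher (log2 0.49, adjusted p = 0.00545). No difference between the routes was called by edgeR for any gene of these lists.

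**Figure D4:**
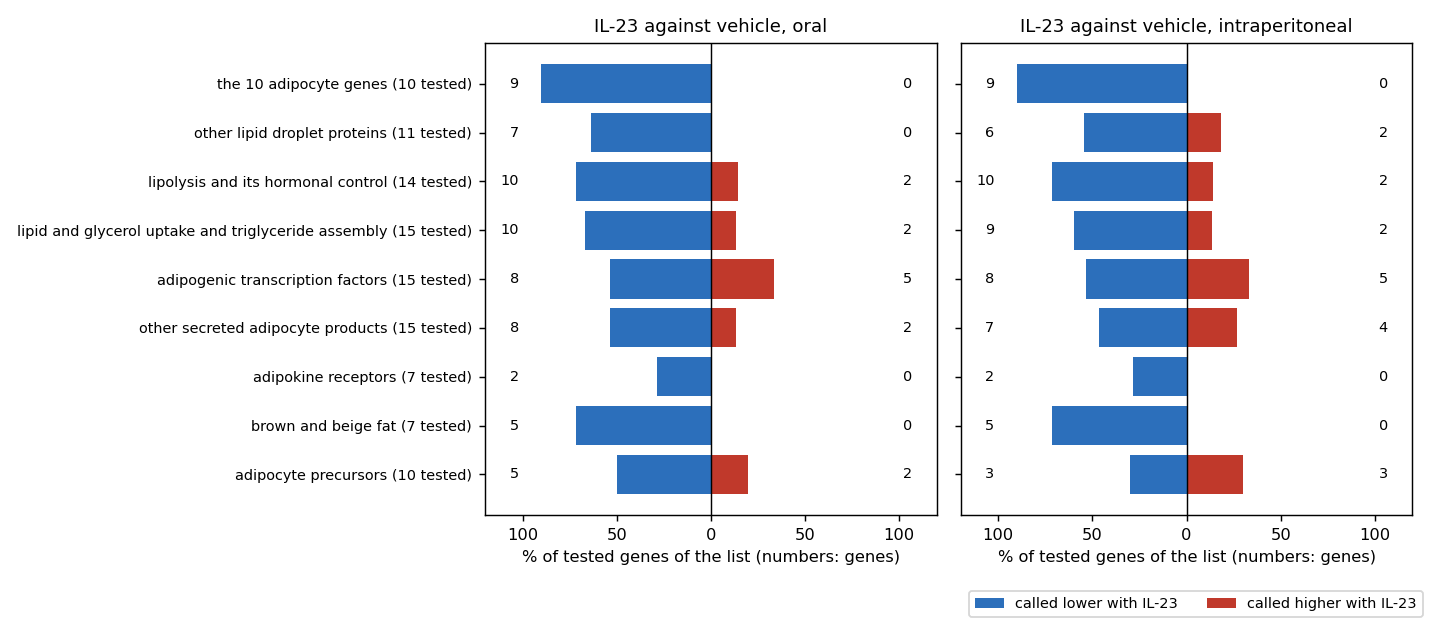
Share of the tested genes of each list called lower (left of 0, blue) and higher (right of 0, red) with IL-23 in the oral and the intraperitoneal comparison (x axis, percent of the list), with the number of genes printed beside each bar. The 10 genes have 9 called lower and 0 called higher in each route, and the transcription factor list has 8 lower and 5 higher in each.

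The genes whose log2 CPM followed Adipoq most closely over the 16 libraries were sought among the 14359 genes that averaged 1 CPM or more, by the root mean square difference of the centred profiles. Cidec was the closest, at 0.13. It was followed by Aoc3 at 0.21, an amine oxidase on the surface of fat cells and smooth muscle, with 8.18 ± 1.59 CPM in IL-23 and 32.8 ± 5.86 in vehicle libraries (SD, n = 8 each). Then came Mfng at 0.22, a glycosyltransferase that modifies Notch, with 4.86 ± 1.32 CPM with IL-23 and 18.4 ± 3.11 with vehicle. Gk5, with 21.6 ± 5.05 CPM with IL-23 and 88.0 ± 9.88 with vehicle, was at 0.24, and Car3, a carbonic anhydrase of fat and muscle, with 41.4 ± 9.52 CPM with IL-23 and 194 ± 25.9 with vehicle, at 0.25. The closest to Plin1 were Adipoq at 0.29 and Cidec at 0.31, then B3galt2 and Abcd2, a peroxisomal fatty acid transporter, at 0.35 each, and Retn at 0.36. Counted from Adipoq, Plin1 ranked 17, Retn 18 and Lep 97, while Fabp4 ranked 535, Pparg 995, Plin4 1242, Pnpla2 1776 and Lipe 5040. All of these profiles share the split between IL-23 and vehicle libraries, so likeness here is mostly likeness in that difference.

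Markers of fat cells were present in every group. The 10 markers used, of which 7 are among the 10 genes, summed to 127 to 212 CPM in the 8 IL-23 libraries and to 286 to 455 CPM in the 8 vehicle libraries. Markers of several other tissues moved with the agent as well. The counts below stand beside 34% of all tested genes called lower and 29.2% called higher in the oral comparison. In the intraperitoneal comparison these shares were 30.9% and 30.8%. All 12 skeletal muscle markers fell in both routes (median log2 -1.42 oral, -1.04 intraperitoneal), and summed to 1487 to 2831 CPM with IL-23 and 3342 to 7045 CPM with vehicle. The 12 sebaceous cell markers, which include Cidea and Elovl3, summed to 3168 to 4710 CPM with IL-23 and 4989 to 8084 CPM with vehicle, with 7 lower and 1 higher in the oral and 7 lower and none higher in the intraperitoneal comparison. The cartilage markers summed to 159 to 316 CPM with IL-23 and 453 to 688 CPM with vehicle; of 8 tested, 5 fell oral and 6 intraperitoneal, and Matn1 was at 0 in the vehicle libraries.

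Keratinocyte markers ran the other way, at 46031 to 83379 CPM with IL-23 and 27712 to 37175 CPM with vehicle, with 6 of 10 higher and 1 lower in the oral and 7 higher and 1 lower in the intraperitoneal comparison. Macrophage markers summed to 562 to 1924 CPM with IL-23 and 348 to 582 CPM with vehicle, and of 11 tested 5 rose oral and 8 intraperitoneal; the IL-23 maximum was library 28, and the next highest IL-23 library had 933 CPM. Markers of capillary endothelium, which also makes Fabp4, summed to 126 to 209.8 CPM with IL-23 and 142 to 310.0 CPM with vehicle, with 5 of 10 lower in the oral and 1 in the intraperitoneal comparison. Fibroblast markers summed to 1066 to 5433 CPM with IL-23 and 1878 to 3811 CPM with vehicle, with 5 of 8 lower in the oral and 1 in the intraperitoneal comparison; the IL-23 maximum was again library 28, and the next highest IL-23 library had 1944 CPM. In the intraperitoneal comparison, the shares of endothelial and of fibroblast markers that fell were below that of all tested genes (30.9%). Apart from Matn1, no marker of these lists found in the table was at 0 throughout a group. The part of these tissues in the fall of the 10 genes was not tested. Within the intraperitoneal groups, IL-23 library 31 was high in the 10 genes and vehicle library 49 was low in them. Library 31 had 1988 CPM of muscle markers (group range 1767 to 1988) and 59190 CPM of keratinocyte markers (46031 to 83379). It had 4710 CPM of sebaceous cell markers (3168 to 4710). Library 49 had 4442 CPM of muscle markers (3342 to 4442) and 32068 CPM of keratinocyte markers (31574 to 35366). It had 4989 CPM of sebaceous cell markers (4989 to 7784). Sebaceous cell markers were thus highest of the group in library 31 and lowest in library 49, while muscle markers were highest in both. The remaining lists are not given for these libraries.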

How the data were processed

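Stranded libraries of total RNA from 16 samples (TruSeq) were run on an Illumina HiSeq, per the labels' protocols. The submitters' processing notes list the build GRCm38, FastQC, STAR 2.52 (version as listed) and featureCounts from Subread 1.5.0. Which annotation was used, whether counting used strand, and how reads with several positions were treated is not given in the sources used here. What was deposited are raw counts of reads for each gene, whole numbers that the authors had not scaled. Of 26357 genes, 5558 had no count.

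The test was that of edgeR 4.0.16 in R 4.3.3, using TMM factors, filterByExpr (minimum count 10) and a quasi-likelihood fit of 4 group means over all 16 samples. All p-values are 2-sided, with the Benjamini-Hochberg method applied to 14671 genes, and adjusted p-values in the text come from this fit unless another tool is named. Standard errors were obtained by dividing the size of each log2 fold change by the root of its F statistic. Levels are TMM-scaled CPM, with a prior count of 2 on the log2 scale for ratios and profiles. CPM per kilobase used merged exons of coding transcripts of GENCODE M21. Gene positions and promoters come from RefSeq on GRCm38.p6, where all 10 genes matched by ID and symbol.

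Alternatives were RLE, upper-quartile and no scaling factors, no filter, a filter of 1 CPM in 4 libraries, DESeq2 1.42.0, limma-voom (limma 3.58.1), a fit of only the groups compared, and leaving out each library. The test script was tested on simulated counts. The 10 genes, the lists and the tests were chosen with earlier results of these data known. From each pathway list the text names the 2 genes of highest mean CPM, the 2 with the largest change (called in both routes, 1 CPM or more where higher) and those called against the majority of the list. The 5 nearest profiles of Adipoq and Plin1 are also named. A gene that these rules name is not reported here.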

Additional observations from a re-analysis of the deposited data

Results flagged for a closer look

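In 5 of the 40 sets of 4 libraries (10 genes, 4 groups), the highest or lowest library stood apart from the other 3. The measure was Dixon's ratio at the 95% level, which chance passes in about 1 in 20 independent sets. The 10 genes share their libraries, so this rate gives no expected number of flags. Cidec had 12.9 CPM in IL-23 intraperitoneal library 31, against 5.35 to 6.13 CPM in the other 3, and Retn had 7.84 CPM in the same library, against 3.23 to 3.73 CPM. In vehicle intraperitoneal library 49 Cidec had 18.3 CPM, against 28.1 to 29.3 CPM in the other 3, and Lipe had 36.2 CPM, against 54.2 to 55.7 CPM. Plin4 had 92.2 CPM in vehicle oral library 4, against 106 to 107 CPM in the other 3. The values of muscle, keratinocyte and sebaceous cell markers in libraries 31 and 49 are given with the marker lists.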

How the results depend on the processing

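No paired analysis was possible because no replicate number is shared between the groups. Of 480 refits of a fold change of the 10 genes, 475 kept direction and side of the threshold and the other 5, all of Lipe, passed it. All 142 recounts of members called stayed within 1.5 times, a wide margin for counts this small. They include the comparisons between routes, where the count was 0 throughout. The drops over both routes given above also counted as unchanged. The median fold change of the 10 genes reached -1.91 oral and -1.60 intraperitoneal with plain library size. Among the alternatives run, reversals occurred only for uncalled estimates of other named genes. With RLE factors Dgat2 oral was 0.0086 and Elovl3 oral 0.012, and with DESeq2 0.0087 and 0.012; limma-voom gave Elovl3 oral 0.00051. With upper-quartile factors the intraperitoneal values were -0.045 for Dgat2, -0.0071 for Apoc1 and -0.031 for Adipor2. With plain library size the oral values were -0.048 for Apoc1, -0.10 for Adipor2 and -0.069 for Aup1, and the intraperitoneal ones -0.021 for Acsl1, -0.17 for Dgat2, -0.13 for Apoc1 and -0.15 for Adipor2. Without single libraries the oral range was -0.13 to 0.13 for Elovl3 and -0.068 to 0.031 for Dgat2. The intraperitoneal range was -0.22 to 0.16 for Elovl3, -0.087 to 0.20 for Dgat2, -0.29 to 0.0093 for Cd34, -0.085 to 0.049 for Adipor1 and -0.014 to 0.18 for Adipor2. The cause of these changes was not tested. Of 68 calls of other named genes, 14 were lost without at least 1 library and 13 in another setting.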
